A study of Mus musculus with 8 samples.

Results

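The 3 Tet dioxygenase genes, Tet1, Tet2 and Tet3, were followed CpG by CpG in mouse neural precursor cells (NPCs) with and without knockdown of Tet3. A CpG was counted as belonging to a gene where it lay between 5 kb upstream of the first transcription start site (TSS) and the end of the gene in the GENCODE vM1 annotation of mm9. The 8 libraries list the same 757812 CpGs, and 209 of these belonged to the Tet genes, 75 in Tet1, 53 in Tet2 and 81 in Tet3. Promoter CpGs lay from 1 kb before to 0.5 kb after any annotated TSS of the gene, and the other CpGs of the transcribed part were counted as the gene body.

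The NPCs were differentiated from A2lox.cre embryonic stem (ES) cells that carried an inducible short hairpin RNA (shRNA), either a non-targeting one (shScr) or one against Tet3 (shTet3). Both groups received doxycycline at 2 µg/ml for 5 days, so the agent that switches on the hairpin was shared by the controls. Per the study, the ES cells were grown on feeder cells and then on gelatine. They were differentiated through floating aggregates that received retinoic acid. DNA from 2 samples of each group was cut with MspI and split. One aliquot of each sample was oxidised before bisulfite conversion (oxBS, which reads 5-methylcytosine, 5mC) and the other was converted directly (BS, which reads 5mC together with 5-hydroxymethylcytosine, 5hmC). The hairpin cassettes were placed at one site by recombination and ES clones were expanded, and the labels do not say whether the 2 samples of a group came from separate clones or differentiations. The p-values of limma and of the permutation tests therefore measure the spread between these samples, which may be technical. The files hold no transcript level, so neither the knockdown nor markers of NPCs were measured here.

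TET enzymes are iron- and 2-oxoglutarate-dependent dioxygenases that oxidise 5mC to 5hmC and on to 5-formylcytosine and 5-carboxylcytosine. Thymine DNA glycosylase (Tdg) and base excision repair can then put back an unmodified cytosine. TET1 and the long form of TET3 bind CpG-rich DNA through their own CXXC zinc finger, whereas TET2 lacks that domain and is partnered by IDAX, the product of the neighbouring gene Cxxc4. Tet1 is known as the abundant family member of ES cells and Tet3 as one of the neural lineage.

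The libraries held between 42516767 and 61865967 methylation calls each, and the median coverage of the Tet CpGs was 40 to 46 calls per library. Over all CpGs read at least 10 times in the 8 libraries, the mean oxBS level was 26.3% and 31.2% in the shScr libraries, against 21.9% and 22.1% in the shTet3 libraries. The median level over 10124 gene bodies was 58.5% and 72.5% in shScr oxBS, against 48.4% and 47.7% in shTet3 oxBS, also without overlap. The 2 shScr libraries thus differed from each other by more than the 2 shTet3 libraries did. This spread touches each comparison below, and values without single libraries are given where they matter. Groups without overlap are named below for single regions, and the share of such regions over the series was not counted.

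The hairpin that the study names for its methylation comparison, Tet3-2, holds a 21-base sense stretch that lies in the Tet3 coding sequence and in no annotated transcript of Tet1 or Tet2. It is shown because it marks the part of the Tet3 transcript that the hairpin matches. It lies in exon 11 of Tet3-001 at chr6:83319640-83319660 (mm9, minus strand), starting at base 3611 of that transcript. The nearest listed CpG was 485 bases away. The longest stretch that the non-targeting hairpin shared with any of these transcripts was 10 bases.
Tet3-2 target: gcagtgtgtattcctaccatt

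The 3 genes lie on the minus strand of different chromosomes. Tet1 (ENSMUSG00000047146.8) spans chr10:62267318-62361866, Tet2 (ENSMUSG00000040943.7) chr3:133126643-133207354 and Tet3 (ENSMUSG00000034832.8) chr6:83312367-83391672. With their upstream 5 kb they hold 1164, 812 and 1196 CpGs in the genome, of which 6.44%, 6.53% and 6.77% were listed. The listed CpGs cluster because the assay reads only the ends of MspI fragments, whose CCGG sites number 96, 74 and 112 in the 3 regions.

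The 250 bases before the RefSeq start of each gene are shown because the listed CpGs of these CpG-rich stretches were at or near 0% in both groups. The sequences were taken from mm9 at the place where the RefSeq promoter of the GRCm38.p6 table matched it exactly. Capitals mark the CpGs listed in the files. They cover chr10:62350073-62350322 for Tet1, chr3:133207355-133207604 for Tet2 and chr6:83391673-83391922 for Tet3, all read on the minus strand.
Tet1: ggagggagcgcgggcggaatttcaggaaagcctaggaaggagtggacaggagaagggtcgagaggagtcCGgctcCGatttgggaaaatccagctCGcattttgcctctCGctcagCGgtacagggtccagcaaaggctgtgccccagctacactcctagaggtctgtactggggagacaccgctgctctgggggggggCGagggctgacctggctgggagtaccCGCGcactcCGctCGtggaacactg
Tet2: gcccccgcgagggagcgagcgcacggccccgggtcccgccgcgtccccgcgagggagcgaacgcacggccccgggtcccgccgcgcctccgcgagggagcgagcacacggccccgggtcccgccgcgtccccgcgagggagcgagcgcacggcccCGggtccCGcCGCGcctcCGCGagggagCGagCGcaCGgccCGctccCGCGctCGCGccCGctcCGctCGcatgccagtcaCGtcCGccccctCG
Tet3: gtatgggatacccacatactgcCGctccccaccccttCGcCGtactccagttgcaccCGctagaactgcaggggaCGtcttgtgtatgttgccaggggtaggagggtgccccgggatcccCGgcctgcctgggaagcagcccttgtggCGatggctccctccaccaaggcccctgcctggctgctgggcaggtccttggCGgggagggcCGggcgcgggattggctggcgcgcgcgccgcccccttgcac

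The Tet2 stretch holds 51 CpGs, the Tet1 stretch 15 and the Tet3 stretch 17, of which 20, 10 and 9 were listed. In the whole promoter window the ratio of observed to expected CpGs was 0.873 for Tet2, 0.607 for Tet1 and 0.484 for Tet3. For Tet2 and Tet3 the RefSeq start is also the first GENCODE start. For Tet1 it lies 11.8 kb downstream of it, in an intron, so the CpGs around it count as body CpGs under the GENCODE starts.

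**Figure D1:**
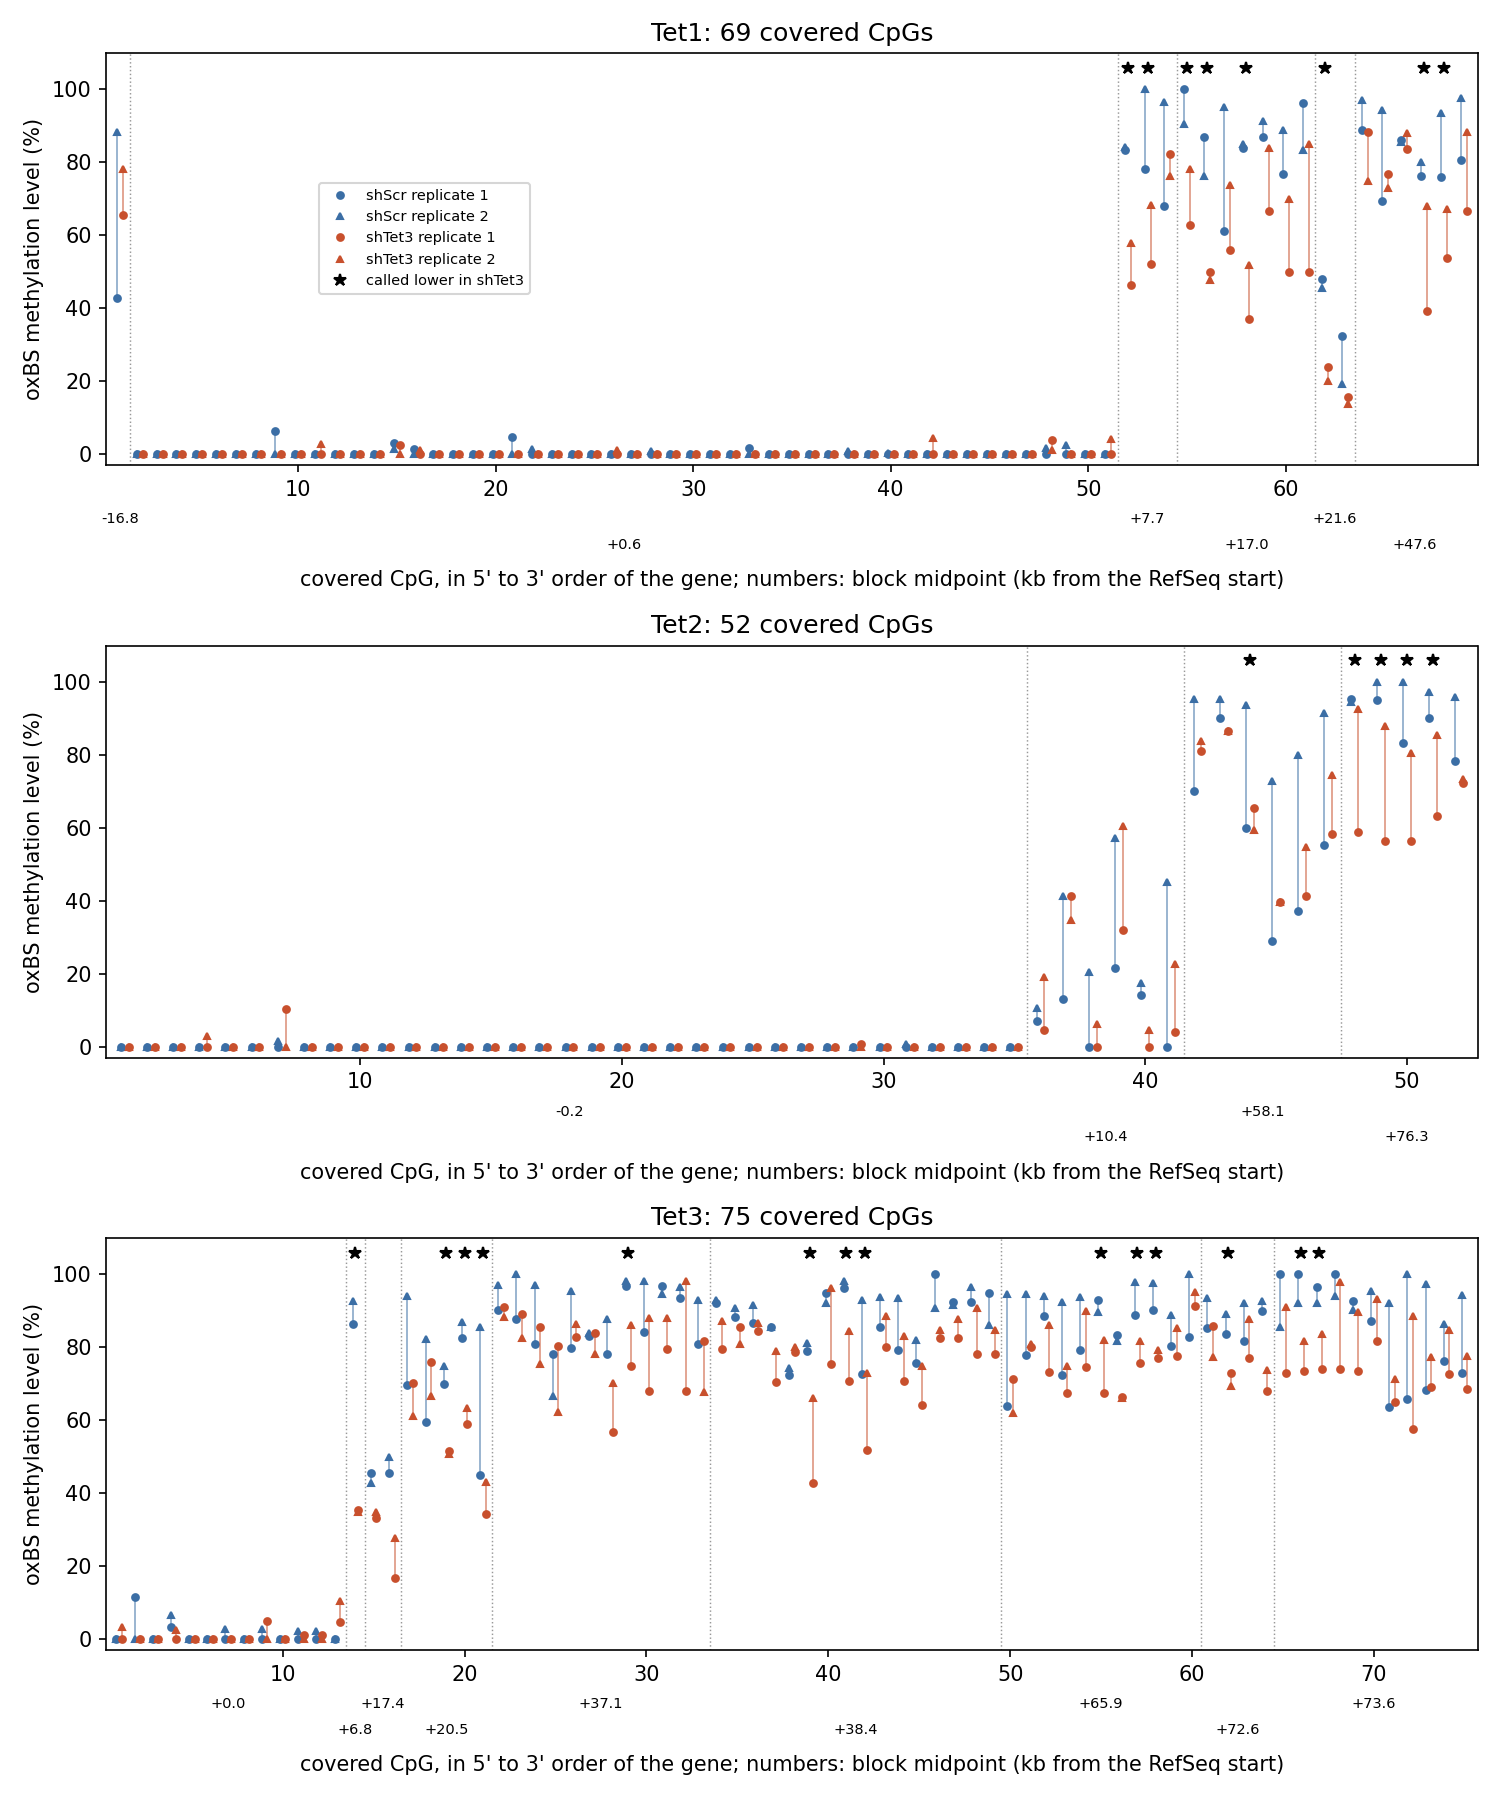
Methylation level in percent of each CpG read at least 10 times in the 4 oxBS libraries, ordered from the 5′ to the 3′ end of the gene, with shScr in blue, shTet3 in orange, replicate 1 as circles and replicate 2 as triangles. Dotted lines separate blocks of CpGs more than 500 bases apart, the number under a block is its distance from the RefSeq start in kb, and stars mark CpGs called lower in shTet3. The CpGs around the RefSeq starts sit near 0%, where a call of lower is not possible, and the stars stand over the methylated blocks farther downstream.

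The first question was whether the starts of the Tet genes were methylated in NPCs and whether the knockdown altered that. The CpGs read around the RefSeq start of each gene were at or near 0% in both groups. The Tet2 promoter had mean oxBS levels of 0% and 0.066% in the shScr libraries, against 0.313% and 0.0866% in the shTet3 libraries, over 35 CpGs (limma, adjusted p = 0.723). Behind these values stood 0 methylated calls of 2045, 2 of 3022, 5 of 2729 and 1 of 2311. A count of 0 in 2045 calls allows a level of up to 0.147%, which is 3 calls over the total, at about 95% confidence for independent calls. One read can give calls at several of these CpGs, so the true limit may be higher. Intervals and limits of this kind cover counting error only. At 31 of the 35 CpGs no methylated call was seen in any oxBS library.

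The Tet3 promoter was read at 13 CpGs with levels of 1.14% and 1.29% in shScr, against 0.918% and 1.26% in shTet3. The groups overlapped, and the difference of the means was -0.123 percentage points (limma, adjusted p = 0.956). At the 9 CpGs with a coverage of 20 or more it was -1.04 points (limma, adjusted p = 0.717). Its CpG nearest the start, 50 bases before it at chr6 position 83391722, had no methylated call in any of the 8 libraries. The most methylated promoter CpG of Tet3 in the controls, at 83391899, had 11.5% and 0% in shScr but 0% in both shTet3 libraries, on 20 to 37 calls. One CpG behaved differently in the oxBS libraries and was picked out after its values were seen. At 83391365, 307 bases past the start, no call of 18 and of 37 was methylated in shScr, against 4.62% of 65 and 10.5% of 38 in shTet3 (adjusted p = 0.0586 in the likelihood ratio test, not called). The BS libraries of the same DNA had no methylated call there in shTet3.

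Around the RefSeq start of Tet1, 35 CpGs had mean oxBS levels of 0.486% and 0.102% in shScr, against 0.0752% and 0.14% in shTet3. No methylated call was seen at 26 of them in the oxBS libraries. The whole unmethylated block of 50 CpGs from 133 bases before to 1420 bases after that start had block means of 0.128% to 0.34%. The starts of the 3 genes were thus read at near 0% in both groups, which is the usual state of a promoter in these libraries, since the median promoter had 0.75% in shScr over 12921 promoters.

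The promoter CpGs that the GENCODE starts give for Tet1 were another matter. No listed CpG lay within the window of its first start. The 5 CpGs counted as promoter belong to internal starts, 3 in the coding sequence of exon 1 of the transcript that starts at 62342762 and 2 near the start of the processed transcript Tet1-002. Their mean oxBS level was 62% and 69.1% in shScr, against 44.1% and 47.2% in shTet3, so the groups did not overlap. The means were 65.5% ± 5.03 and 45.6% ± 2.23 (SD, n = 2 each), a difference of -19.9 percentage points. In a limma fit over all 12921 promoters this did not pass (adjusted p = 0.685). The permutation test over samples gave p = 0.33 (exact, two-sided, n = 2 per group), which is the smallest value that 2 samples against 2 allow. With the RefSeq start added as a promoter, the Tet1 promoter held 40 CpGs at 8.45% in shScr and 5.80% in shTet3 and its body 28 CpGs at 39.9% and 31.2% in the same order, an alternative chosen after seeing the data.

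In limma fits of the same kind 0 of 12921 promoters and 0 of 10526 bodies (0% each) passed an adjusted p of 0.05 in the oxBS libraries. At an unadjusted p under 0.05, 742 promoters were lower and 145 higher, and 1838 bodies were lower and 25 higher. On the percent scale limma also called 0. Other settings called bodies of the series. Without shScr replicate 1, 3973 of 10730 bodies were called lower and 17 higher, and with promoters from 2 kb before to 1 kb after a start 46 of 9000 were lower and 5 higher. None of these calls was a Tet gene. The region levels of the Tet genes are therefore given as values with their spread. Single CpGs were tested on the counts of methylated and unmethylated calls by a likelihood ratio test, called at a Benjamini-Hochberg adjusted p under 0.01 and a pooled difference over 10 percentage points. This test has no term for the spread between replicates. With an overdispersion correction (F test) 0 CpGs of the series passed, with 12984 lower and 21 higher at an unadjusted p under 0.05, among them 2 lower in Tet1, 0 in Tet2 and 1 in Tet3.

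**Figure D2:**
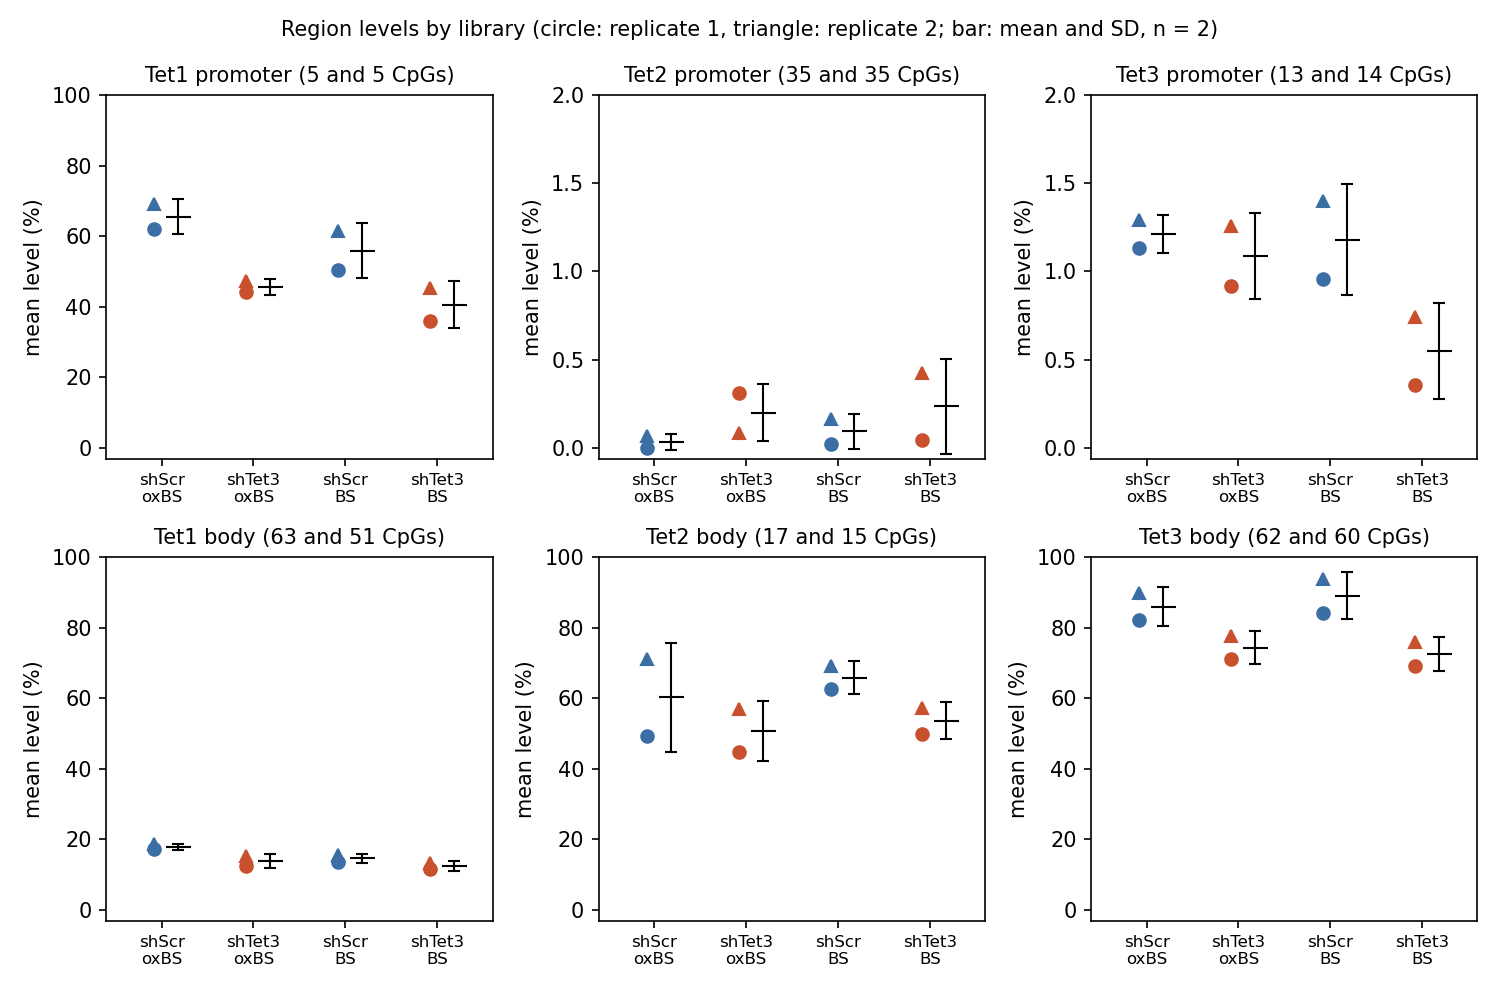
Mean methylation level in percent of the promoter (top) and body (bottom) CpGs of each gene in every library, with the mean and SD of each group of 2 beside the points and the number of CpGs for oxBS and BS in the title. Tet2 and Tet3 promoters are drawn on a scale of 0% to 2% and the others to 100%. The shTet3 points of the Tet3 body lie below the shScr points in both kinds of library, and those of the Tet2 body overlap with shScr in oxBS.

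By the likelihood ratio test, 27 of the 196 Tet CpGs tested were called lower in shTet3 in the oxBS libraries and 0 were called higher, with 55 lower and 2 higher at an unadjusted p under 0.05. Over the series, 13.9% of 662455 CpGs were called lower and 0.0814% higher, so the share of 13.8% in the Tet genes was close to the background. Both shTet3 libraries were below both shScr libraries at 50 of the 196 Tet CpGs (25.5%) and at 26.3% of all CpGs tested. Among the CpGs called lower this was so at 25 of 27 in the Tet genes and at 84859 of 92374 in the series. The 27 were 8 CpGs of Tet1, 5 of Tet2 and 14 of Tet3, and none was in the upstream part or near a first start. The differences behind these calls depended on single libraries, in the Tet genes and in the series. Without shTet3 replicate 1 the body differences of Tet1, Tet2 and Tet3 were -2.81, -3.45 and -8.32 points. The median over all bodies was then -11.3 points. Without shScr replicate 2 they were -3.09, 1.45 and -7.75 points, beside a median of -7.38 points. With all libraries they were -3.98, -9.40 and -11.6 points, beside a median of -12.7 points. The Tet1 promoter difference was -18.3 points without shTet3 replicate 1, in place of -19.9.

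In Tet1, the founding member of the family, calls fell into 4 short blocks. The first lies 7659 to 7735 bases past the RefSeq start in the coding sequence of exon 1 of the transcript that starts at 62342762, at chr10:62342332-62342419. Capitals in the stretch, printed because it holds the call with the smallest adjusted p of the gene, mark the 2 CpGs called lower of the 3 it holds.
Tet1 exon 1 block: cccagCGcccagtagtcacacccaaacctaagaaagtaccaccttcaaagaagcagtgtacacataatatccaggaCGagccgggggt
Its mean oxBS level was 76.5% and 93.6% in shScr, against 60.2% and 67.5% in shTet3. At position 62342413 the level was 83.3% of 120 calls and 84.1% of 63 in shScr, against 46.3% of 54 and 58% of 69 in shTet3. The groups stood apart there by more than either pair of replicates differed, with a pooled difference of -30.8 percentage points (likelihood ratio test, adjusted p = 4.15e-07). At 62342342 the levels were 78.1% and 100% in shScr, against 52.1% and 68.3% in shTet3, a pooled difference of -24.4 points (likelihood ratio test, adjusted p = 6.77e-05). This was also the most methylated Tet1 promoter CpG in the controls.

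The second Tet1 block, 7 intronic CpGs at chr10:62333001-62333145, had the largest difference of the gene's blocks. Capitals mark its 3 called CpGs.
Tet1 intron block: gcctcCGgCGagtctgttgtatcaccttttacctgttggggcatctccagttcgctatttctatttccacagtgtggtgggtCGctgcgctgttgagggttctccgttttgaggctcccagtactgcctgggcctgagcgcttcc
The block mean was 84.6% and 87.2% in shScr, against 53.2% and 70.1% in shTet3, a difference of -24.2 points. At 62333062 the level was 83.9% and 85% in shScr, against 37.1% and 52% in shTet3, on 20 to 35 calls, with a pooled difference of -41 points (likelihood ratio test, adjusted p = 0.000101). The other 2 called CpGs were lower, with pooled differences of -33.7 and -26.1 points. The remaining blocks of Tet1 were 2 intronic CpGs near the Tet1-002 start and 6 coding CpGs in exon 3 of the transcript that starts at 62342762. Of these, 62328480 had 47.9% and 45.7% in shScr, against 24% and 20% in shTet3 (pooled difference -25 points), the lowest control level among the called CpGs of the gene. In BS this CpG had 33.8% and 34.8% in shScr, against 41.5% and 25.8% in shTet3, a pooled difference of 0.74 points. In exon 3 of that transcript, 2 of 6 CpGs were called and the block mean was 79.6% and 91.4% in shScr, against 68.1% and 76.6% in shTet3.

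The Tet1 body as a whole held 63 covered CpGs, of which 50 were under 20% in shScr and 13 over 70%. All 5 body calls were among the 13. The 50 could not be called lower, since their mean in shScr was 0.34% and 0.18% and a call needs a drop over 10 percentage points. The body mean was 17.3% and 18.5% in shScr, against 12.5% and 15.3% in shTet3, with no overlap. The means were 17.9% ± 0.91 and 13.9% ± 2.00 (SD, n = 2 each), a difference of -3.98 points (limma, adjusted p = 0.333). With levels weighted by reads the difference was -0.519 points. The single covered CpG upstream of the gene, 62366861, had 42.9% and 88.2% in shScr, against 65.6% and 78.3% in shTet3. There the control replicates alone spanned the shTet3 values.

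In Tet2, the member that acts with IDAX, 17 body CpGs were covered in 3 blocks whose levels were higher toward the 3′ end. The intronic block, 10109 to 10670 bases past the start, had 9.3% and 32% in shScr, against 13.7% and 24.6% in shTet3, with 0 of 6 CpGs called. The block in the coding sequence of exon 3 had 56.9% and 88.1% in shScr, against 62.1% and 66.4% in shTet3, with 1 of 6 called. In both blocks the 2 control replicates enclosed the shTet3 values. The block in the coding sequence of exon 11, chr3:133130997-133131075, held the other 4 calls among its 5 CpGs, marked by capitals.
Tet2 exon 11 block: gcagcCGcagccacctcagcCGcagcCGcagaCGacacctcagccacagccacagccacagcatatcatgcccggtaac
Its mean was 88.4% and 97.5% in shScr, against 61.4% and 83.9% in shTet3. At 133131054 the level was 95.1% and 100% in shScr, against 56.4% and 87.8% in shTet3 on 37 to 41 calls, a pooled difference of -24.9 points (likelihood ratio test, adjusted p = 6.37e-05). The neighbouring CpGs 133131048 and 133131042 were lower, with pooled differences of -22.4 and -18.8 points. In each of the 3 the shTet3 replicates differed from each other by more than 20 points, with replicate 1 the lower.

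The Tet2 body mean was 49.4% and 71.1% in shScr, against 44.8% and 56.8% in shTet3. The means were 60.2% ± 15.3 and 50.8% ± 8.51 (SD, n = 2 each). The difference of -9.40 points was smaller than the gap between the control libraries (permutation p = 0.67, exact, two-sided, n = 2 per group, and limma adjusted p = 0.449). Replicate 2 of shScr was above replicate 1 at 16 of the 17 CpGs. Without it the difference was 1.45 points in the other direction, beside a median of -7.38 points over all bodies of the series. With levels weighted by reads the difference was -3.58 points.

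In Tet3, the gene targeted by the hairpin, the body was the most methylated of the family. Its 62 covered CpGs had a mean of 82.1% and 89.8% in shScr, against 71.1% and 77.6% in shTet3, and 59 of them were over 70% in shScr. The groups did not overlap, with means of 85.9% ± 5.45 and 74.3% ± 4.64 (SD, n = 2 each), and the difference was -11.6 points (limma, adjusted p = 0.272, permutation p = 0.33, exact, two-sided, n = 2 per group). The pooled difference was negative at 59 of the 62 CpGs, a share that was not counted over the series. At CpGs over 70% in shScr the median pooled difference was -9.79 points in Tet3 and -17.5 points in the series. Of the 62 CpGs, 14 were called lower, a share near the 22.3% called lower among 211866 gene-body CpGs of the series. Of these 10 lay in coding sequence, among 48 coding CpGs tested, with 4 in exon 3, 3 in exon 7 and 3 in exon 11. The other 4 lay in introns, and the 4 tested CpGs of the 3′ untranslated region were not called.

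The largest called difference of the family was at an intronic CpG 6814 bases past the Tet3 start, 83384858, shown in capitals with its surroundings at chr6:83384829-83384888. The next is the CpG with the deepest coverage among the named ones, 83353743 in the coding sequence of exon 3, shown at chr6:83353714-83353773.
Tet3 intron site: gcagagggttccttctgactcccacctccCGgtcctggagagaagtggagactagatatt
Tet3 exon 3 site: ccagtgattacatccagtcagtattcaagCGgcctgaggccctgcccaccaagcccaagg
At the intron site the level was 86.4% of 22 calls and 92.9% of 14 in shScr, against 35.5% of 31 and 34.8% of 23 in shTet3, a pooled difference of -53.7 points (likelihood ratio test, adjusted p = 4.8e-06). The replicates of each group were close together there, on few calls. It could not be tested in the BS libraries, where 1 library had 9 calls. The BS levels were 89.5% and 77.8% in shScr, against 69.6% and 50% in shTet3, a smaller gap than in oxBS. The exon 3 site had 79% and 81.2% in shScr, against 42.9% and 66.1% in shTet3 on 112 to 161 calls, a pooled difference of -27.8 points (likelihood ratio test, adjusted p = 2.26e-09). A CpG of the intronic block that begins 20445 bases past the start, 83371073, had 45.1% and 85.7% in shScr, against 34.3% and 43.2% in shTet3, where the control replicates were farther apart than the groups.

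The blocks of Tet3 in exon 3, exon 7 and exon 11 had differences between -9.38 and -12.1 points, and 2 intronic blocks -17.5 and -17.7 points. The exon 7 block, chr6:83325720-83325898, is printed because its 11 CpGs span an exon and the adjoining intron, and capitals mark the 3 called lower.
Tet3 exon 7 block: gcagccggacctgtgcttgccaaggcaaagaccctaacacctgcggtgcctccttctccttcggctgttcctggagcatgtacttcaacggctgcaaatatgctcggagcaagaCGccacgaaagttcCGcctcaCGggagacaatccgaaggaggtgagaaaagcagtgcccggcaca
This block had 81.9% and 93.3% in shScr, against 74.8% and 80.3% in shTet3. The block nearest the hairpin's target, 4 coding CpGs of exon 11, had 85.2% and 91.9% in shScr, against 76% and 77% in shTet3, with 1 called. Its difference of -12.1 points was thus near that of the other coding blocks.

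**Figure D3:**
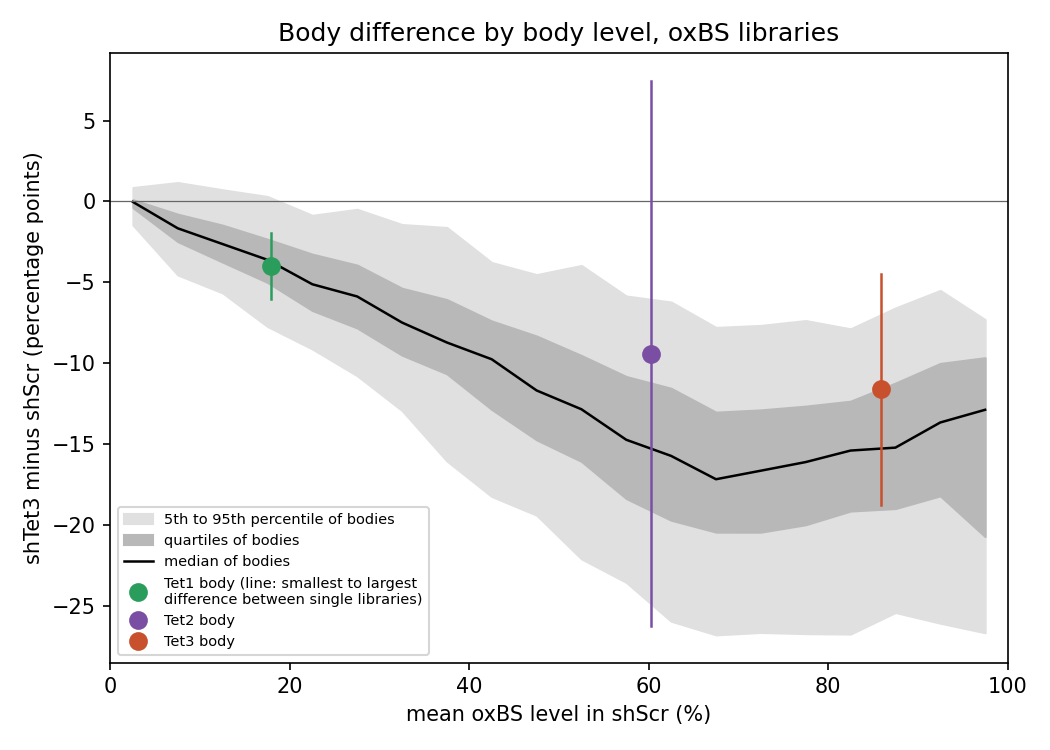
Difference in mean body level between shTet3 and shScr in percentage points against the shScr level in percent, for the 3 Tet genes (dots) and for 10526 gene bodies (black line for the median, grey bands for the quartiles and for the 5th to 95th percentiles in steps of 5 points). The line through each dot runs from the smallest to the largest difference between single libraries. Tet1 lies on the median and Tet2 and Tet3 lie above it with lines that cross it.

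The body differences were read against those of other genes. The median difference over 10526 bodies was -12.7 points, beside -3.98, -9.40 and -11.6 for Tet1, Tet2 and Tet3. Among bodies within 5 points of the same shScr level, the median was -3.76 for the 513 like Tet1, -15.3 for the 1274 like Tet2 and -15.3 for the 1794 like Tet3. The quartiles were -19.1 and -11.2 points for the set like Tet2 and -19 and -11.8 points for that like Tet3, so both bodies had a smaller difference than the quartiles span in oxBS. In BS the Tet3 difference of -16.4 points lay within the quartiles of its set, -18.6 and -11.8 points around a median of -15.3. Since the shScr level enters both the choice of these bodies and the difference, this is a description without a test. The same holds for single CpGs over 70% in shScr, of which 41.7% were called lower in the series, against 13 of 59 in Tet3, 7 of 16 in Tet1 and 5 of 9 in Tet2. In BS the share was 42.4% in the series, against 25 of 58 in Tet3, 0 of 12 in Tet1 and 5 of 9 in Tet2, so the lower share of Tet3 was not seen there.

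Whether the 3 bodies differed from each other in their response was tested on the difference between genes within each oxBS library. The body of Tet1 minus that of Tet3 was -64.8 and -71.3 points in shScr and -58.6 and -62.3 in shTet3, a change of 7.62 points. The changes for Tet1 minus Tet2 and for Tet2 minus Tet3 were 5.42 and 2.21 points. None of the 3 pairs passed (exact permutation tests, two-sided, adjusted p = 1 for each), and no pair could have, given the smallest p of 0.33. In BS the 3 changes lay between 4.21 and 14.2 points (exact permutation tests, adjusted p = 0.33 for each).

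The BS libraries, which read 5mC and 5hmC together, put the same question to the other aliquot of each DNA. There 32 of 181 Tet CpGs tested were called lower and 0 higher (60 and 2 at an unadjusted p under 0.05), against 13.8% lower and 0.0621% higher among 659124 CpGs of the series. Tet3 held 26 of these, Tet2 held 6 and Tet1 held 0. They lay at 26 of 60 body CpGs tested in Tet3 (43.3%) and 6 of 15 in Tet2 (40%). Among gene-body CpGs of the series 22.8% were called lower in BS, and among all CpGs over 70% in shScr 42.4%. Without shScr replicate 2 the BS body differences of Tet3 and Tet2 were -12.0 and -8.07 points, beside a median of -7.70 points over all bodies. Without shTet3 replicate 1 the Tet3 difference was -13.3 points, beside a median of -11.3 points. The BS difference of the Tet1 promoter was -15.3 points. It was -20.9 points without shScr replicate 1 and -20.1 points without shTet3 replicate 2. The Tet3 body was at 84.3% and 93.7% in shScr, against 69.2% and 75.9% in shTet3, a difference of -16.4 points (limma, adjusted p = 0.247, with 0 of 12894 promoters and 0 of 10433 bodies called, and 758 promoters lower and 182 higher and 1803 bodies lower and 20 higher at an unadjusted p under 0.05). The Tet2 body was at 62.5% and 69.1% against 49.9% and 57.3%, and here, unlike in oxBS, its groups did not overlap. The Tet1 body was at 13.7% and 15.6% against 11.5% and 13.3%.

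Calls in the 2 kinds of library were only partly at the same CpGs. The overlap over all CpGs of the series was not counted, so this is not read as a trait of the Tet genes. Of the Tet3 CpGs tested in both, 13 were called lower in oxBS and 26 in BS, and 5 in both, which is 38.5% of the first list and 19.2% of the second. For Tet2, 3 were shared, of 5 and of 6. For Tet1, 6 were called in oxBS and 0 in BS. The exon 3 site of Tet3 was among the shared ones, with 82.1% and 89.5% in shScr BS and 46.8% and 64.9% in shTet3 BS. The called Tet1 site 62342413 had BS levels of 52.6% and 84.4% in shScr, against 42.1% and 52.8% in shTet3, where 1 control library lay below its partner by more than the groups differed.

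**Figure D4:**
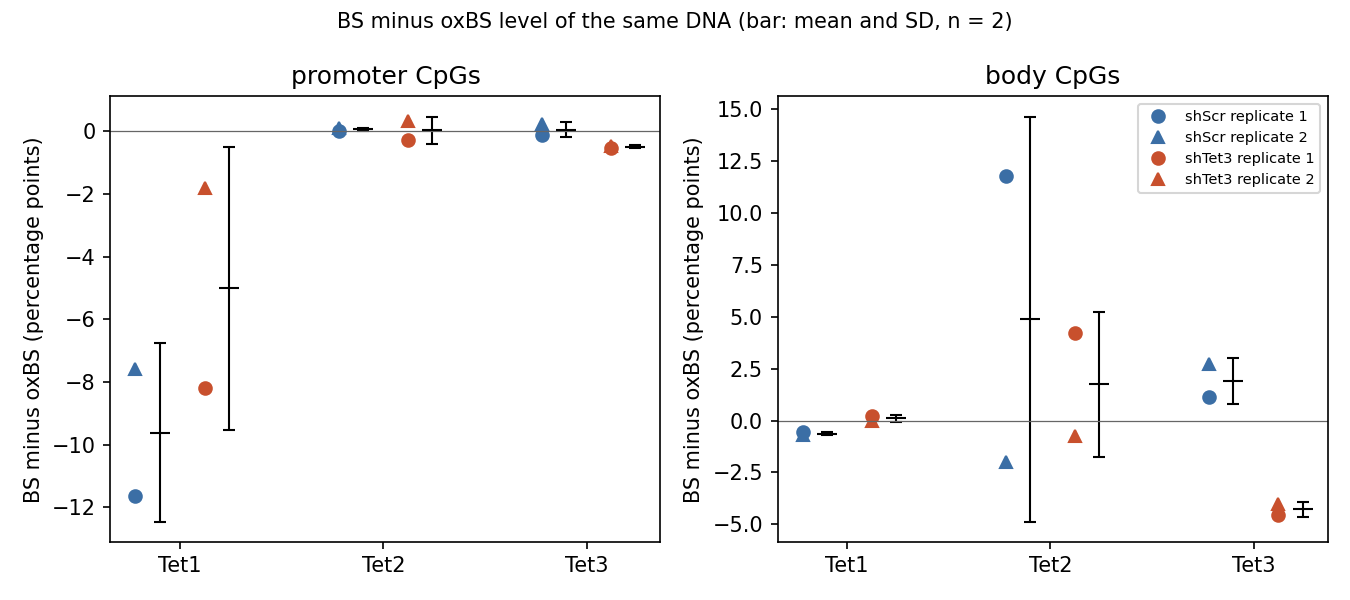
BS minus oxBS level in percentage points for the promoter (left) and body (right) CpGs of each gene, 1 point for each shRNA and replicate number (shScr blue, shTet3 orange, replicate 1 circles, replicate 2 triangles), with the mean and SD of each group of 2. Values above 0 are the estimate of 5hmC, and the points lie on both sides of 0.

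Libraries of one shRNA and number were taken as the aliquots of one DNA, since they share that number. The difference between BS and oxBS then estimates 5hmC. The study reported a high false discovery rate for this estimate in NPCs, and hardly any signal. In the Tet genes the difference was of mixed sign. In the Tet3 body it was 1.14 and 2.70 points in shScr and -4.55 and -4.02 points in shTet3, over 58 CpGs. A negative value cannot be a 5hmC level. In the Tet1 body the values were between -0.686 and 0.225 points and in the Tet2 body between -2.01 and 11.8 points. In the 5 Tet1 promoter CpGs all 4 values were negative, from -11.6 to -1.81 points. The permutation p for the difference between the groups was 0.33 or more in each of these regions (exact, two-sided, n = 2 per group).

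Per CpG, BS was called above oxBS in shScr at 2 CpGs, both in Tet3 coding sequence (1 with the replicate number as a block), and below it at 0 of 187 Tet CpGs tested, with 12 above and 7 below at an unadjusted p under 0.05 in the likelihood ratio test. The background was 0.33% above and 0.17% below. At 83353774 in exon 3 the levels were 92.8% and 100% in BS and 72.5% and 74.4% in oxBS, 21.2 points apart (likelihood ratio test, adjusted p = 0.00581). At 83325892 in exon 7 they were 89% and 94.6% in BS and 64% and 94.7% in oxBS, so that 1 oxBS library lay below the other 3 libraries. In shTet3, 0 of 189 Tet CpGs were called in either direction (7 above and 17 below at an unadjusted p under 0.05, likelihood ratio test), against 0.0239% above and 0.0141% below in the series.

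Other genes of the pathway were read in the same way from a list of 22 that hold the glycosylases and repair enzymes acting after TET, GADD45 proteins, CXXC partners, enzymes of 2-oxoglutarate and its inhibitor 2-hydroxyglutarate, and deaminases. Of the 21 with a tested CpG, 14 had at least 1 CpG called lower in oxBS and 1, Cxxc5, had a CpG called higher. Over the series, 65.4% of 16844 genes had a lower and 1.98% a higher CpG. In promoters, 7 of 464 CpGs were called lower, 5 of them in D2hgdh, which removes 2-hydroxyglutarate, and 2 in Idh2, which makes 2-oxoglutarate. Over all CpGs of the series 13.9% were called lower, and the share for promoter CpGs alone was not counted. In shScr oxBS the D2hgdh promoter was at 27.8% and 39.9% and that of Idh2 at 31.9% and 34.5%. Most other promoters of the list were near 0%, and that of Neil2, at 55.2% and 25%, held 0 calls. Promoter CpGs of Tdg, 32 in number, had mean levels of 0.0762% and 0.0435% in shScr oxBS. They could not be called lower, since a call needs a larger drop than these levels allow, and 0 were called higher. In bodies, 37 of 175 CpGs were called lower and the median difference over 18 genes was -13.4 points, beside 22.3% of gene-body CpGs called lower and a median body difference of -12.7 points in the series. The 2 largest body differences were those of Neil1, a DNA glycosylase, and of Apobec1, a cytidine deaminase. Neil1 had 81.2% and 90.4% in shScr, against 62.9% and 61% in shTet3 over 2 CpGs, and Apobec1 61.8% and 74.7% against 53.9% and 35.2% over 8 CpGs. In Cxxc4, 1 of 3 body CpGs was called lower, with 48% and 59% in shScr, against 32.6% and 48.1% in shTet3.

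By the distance over promoter and body means in the 8 libraries, 16 values for each of 7739 genes, the genes most like Tet3 were Mgat1 and Tubgcp3, at root mean square distances of 1.32 and 1.51 points. Mgat1 had a body level of 87.2% in shScr and 75.2% in shTet3 where Tet3 had 87.1% and 76.4% over the CpGs covered in all 8 libraries. The nearest to Tet2 were Zfp644, Snx24 and Rab3ip at 1.87, 2.35 and 2.41 points. The nearest to Tet1 were Tulp1, Epha10 and Il17rc at 4.87, 5.87 and 6.32 points, so Tet1 had the least close neighbours of the family under the GENCODE starts. There its promoter was the 5 CpGs at internal starts, at 65.5% in shScr, and its RefSeq start counted as body. Distances with the RefSeq start as promoter were not calculated.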

How the data were processed

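The 8 deposited tables give, per the file headers, the coverage of each CpG in counts and its methylated and unmethylated share in percent, on mm9. The authors trimmed single-end reads of 75 bases with Trim Galore, aligned them with Bismark and tabulated CpGs with methylKit (versions not given in the sources used here), and CpGs under 5 calls are not in the tables. Libraries were amplified by 18 PCR cycles, and no molecular identifiers are named. Methylated counts were recovered as coverage times percent and came out whole.

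CpGs with 10 or more calls in the libraries compared were used. Each CpG was tested by logistic regression on the counts over the whole series (likelihood ratio test, Benjamini-Hochberg adjustment). Promoters and bodies of protein-coding genes with 3 or more CpGs were fitted with limma 3.58.1 (R 4.3.3) on log2((level + 1)/(100 − level + 1)) with a mean trend. Single values were compared by exact permutation tests in Python 3.11.15 with scipy 1.17.1. The per-CpG tests and limma were tried on simulated data. Simulated counts held no spread between replicates, and simulated region levels held less than the shScr libraries. In those, body levels of replicate 2 minus replicate 1 had a median of 8.85 points in oxBS. The simulations therefore do not show how the tests behave under the spread of these samples.

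The members, gene lists and tests were chosen with earlier results of these data known. CpGs named singly are, per gene and region class, up to 3 called CpGs with the largest difference and no overlap of groups, the covered CpG nearest the first TSS, the promoter CpG highest in shScr, and those said to be picked after their values were seen. The CpGs with BS called above oxBS in shScr were also named after their values were seen. From the pathway list, the 2 genes with the largest body difference were named. D2hgdh, Idh2, Neil2, Tdg, Cxxc4 and Cxxc5 were named after their values were seen. The most like genes are the 3 at the smallest distance, of which 1 is not reported here. Blocks, of CpGs at most 500 bases apart, were defined after seeing the data and were not tested. Per the labels each sample was split for BS and oxBS, and libraries with the same number and shRNA were taken to be its aliquots. Nothing in the labels pairs shScr and shTet3 samples. Alternatives were coverage of 5 and 20, other promoter limits and TSS sets, other tests, read-weighted levels, the replicate block and leaving out each replicate.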

Additional observations from a re-analysis of the deposited data

Results flagged for a closer look

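In the Tet3 body the BS minus oxBS value was above 0 in both shScr samples (1.14 and 2.70 points) and below 0 in both shTet3 samples (-4.55 and -4.02 points), a difference of -6.20 points between the groups. The opposite signs in the 2 groups drew attention to it. The exact permutation test over 2 against 2 samples cannot go below p = 0.33, so the difference was not tested in a way that could pass. The same pattern of signs was found in 613 of 10124 gene bodies (6.05%) and the opposite one in 540 (5.33%). The difference was below that of Tet3 in 10.5% of bodies, and its median over all bodies was -0.112 points.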

How the results depend on the processing

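No region level of the Tet genes passed the limma threshold under any alternative (lowest adjusted p = 0.0507 over 178 values), and 173 kept their direction. Those that turned were the oxBS Tet2 body without shScr replicate 2 (1.45 points) and Tet3 promoter without shTet3 replicate 1 (0.048), the BS Tet1 body with read-weighted levels (1.87), and the BS Tet2 promoter at a coverage of 20 (-0.0327) and without shTet3 replicate 2 (-0.0500). Leaving out each replicate gave oxBS differences of -20.2 to 1.45 points for the Tet2 body, -0.295 to 0.048 for the Tet3 promoter, -15.5 to -7.75 for the Tet3 body, -5.40 to -2.81 for the Tet1 body and -23.5 to -16.3 for the Tet1 promoter, and -0.0500 to 0.332 for the BS Tet2 promoter. Levels weighted by reads gave -0.519 points for the oxBS Tet1 body and -3.58 for the Tet2 body, in place of -3.98 and -9.40, and a coverage of 20 gave -1.04 for the Tet3 promoter, in place of -0.123.

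Counts of CpGs called lower moved most with the test and with single libraries. The F test corrected for overdispersion gave 0 in each region, in oxBS and BS. Leaving out each replicate gave oxBS counts of 1 to 3 (Tet1 promoter), 0 to 5 (Tet1 body), 0 to 6 (Tet2 body) and 2 to 18 (Tet3 body), 0 to 2 higher in the Tet2 body, and BS counts of 0 to 3, 0 to 2, 2 to 8 and 5 to 34 lower in the same order, with 0 to 1 higher in the Tet2 body. The cause was not tested.

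Replicate numbers of shScr and shTet3 are not stated to mark a shared batch, and deviations of same-numbered samples correlated at -0.0862 (oxBS) and -0.0756 (BS) over bodies. With the replicate block the Tet1 promoter had 2 BS calls in place of 0, the Tet3 body 15 oxBS calls in place of 14, and region calls did not appear. BS against oxBS in shScr gave 1 Tet3 call with the block, where a shared number is taken to mark one DNA, and 1 at a coverage of 20, in place of 2.

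BS minus oxBS differences turned for the Tet2 promoter without shScr replicate 2 (0.0105) or shTet3 replicate 1 (0.278; range when leaving out each replicate -0.330 to 0.278), the Tet2 body without shScr replicate 1 (3.76; range -9.12 to 3.76) and the Tet3 promoter at a coverage of 20 (0.33). Differences between gene bodies turned for Tet1 minus Tet2 without shScr replicate 2 (-4.53; range -4.53 to 15.6) and for Tet2 minus Tet3 without shScr replicate 1 (-4.78) or shTet3 replicate 2 (-0.526; range -4.78 to 9.20).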
